A study of Mus musculus with 6 samples.

Results

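The genes described here were 10 genes of glucose uptake and glycolysis, chosen by name with earlier results of these data known. The lists of related genes described below were chosen with the same knowledge. Slc2a1 and Slc2a3 encode the glucose transporters GLUT1 and GLUT3, Hk1 and Hk2 encode hexokinases, and Gpi1 encodes glucose-6-phosphate isomerase. Aldoa and Aldoc encode aldolases, Pgk1 phosphoglycerate kinase, Eno1 an enolase and Ldha the A subunit of lactate dehydrogenase. Array probes were matched to genes through their RefSeq accessions, and the 10 genes held 15 of the 27235 matched probes, which cover 20660 genes. All 15 probes passed the filter on low signal, as did probes of 15738 genes in all, and all 15 were well above background on all 6 arrays.

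Glycolysis turns glucose into pyruvate in the cytosol. Facilitative transporters let glucose into the cell, hexokinase traps it as glucose 6-phosphate, a chain of isomerases, kinases, aldolases and enolases carries it on to pyruvate, and lactate dehydrogenase interconverts pyruvate and lactate. Several of the genes are textbook targets of the hypoxia-inducible factors (HIF), and in the mammary gland glucose is also a precursor of the milk sugar lactose.

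The mouse mammary samples were 3 of E18.5 fetal and 3 of adult basal cells, and the RNA of each was measured on its own one-color Agilent array. Both populations were from C57Bl6J females and were sorted as cells negative for CD31, CD45 and Ter119. The fetal cells were EpCAM++CD49f+ cells of embryonic day 18.5, from tissue digested briefly. The adult cells were BP-1-EpCAM+CD49f+ cells, called basal by this gate, of mice aged 8 to 12 weeks, from tissue digested overnight. Age, gate and length of digestion differ together between the populations and cannot be told apart. The samples are labelled as biological replicates, with no statement of how many animals were pooled for each. Values are log2 signals, that is, the log2 of the background-subtracted spot intensity after quantile normalization of the 6 arrays, and 1 unit is a factor of 2. Log2 fold changes are fetal over adult basal. A gene is represented by its brightest tested probe, called the main probe here, and is called changed when the Holm-adjusted p of limma's test over all 20451 tested probes is at most 0.05 and the absolute log2 fold change is at least 1. Array signals are bulk measurements, so fewer cells that hold a transcript and less of it in each cell cannot be told apart.

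Most of the 10 genes were dimmer in fetal than in adult basal cells, and the largest differences were at glucose entry. Slc2a3 was 25.8-fold and Slc2a1 10.2-fold lower in fetal cells, and Gpi1 was 3.26-fold lower. Aldoc went the other way and was 5.38-fold higher in fetal cells. These 4 of 10 genes were called, whereas 11.1% of all tested genes were called. One gene was called higher in fetal cells, against 5.97% of all tested genes, and 3 were called lower, against 5.16%. The fetal mean was below the adult basal mean for 9 of the 10, and the arrays of the populations did not overlap for any of the 10. Non-overlap alone is common in these data, since it held for 68.4% of all tested genes. The median log2 fold change was -0.96 over the 10 genes and -0.04 over all tested genes.

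**Figure D1:**
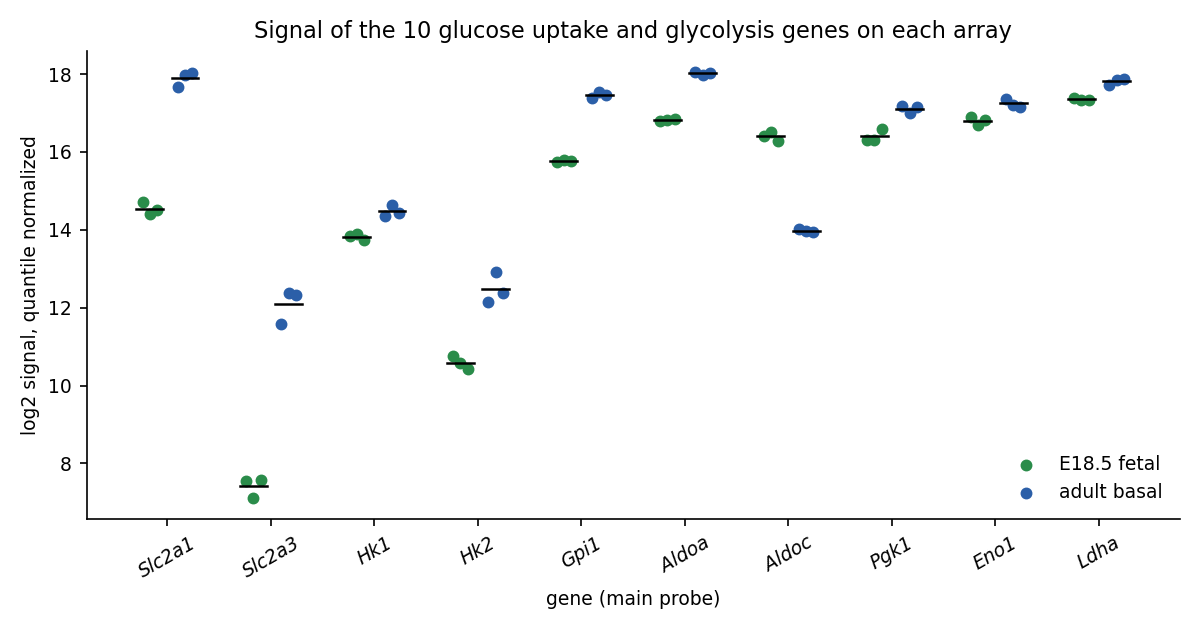
Quantile-normalized log2 signal of the main probe of each of the 10 genes (y axis, log2 units) on the 3 fetal arrays (green) and the 3 adult basal arrays (blue), with a black line at each mean. The fetal points lie below the adult basal points for every gene but Aldoc, with the widest gaps for Slc2a3 (log2 fold change -4.69) and Slc2a1 (log2 fold change -3.35), and levels of different genes are not comparable because each probe binds with its own strength.

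The sequences just upstream of the start sites are shown for the 5 genes that held the letters ACGTG there, the core of the hypoxia response element, since HIF target genes are among the genes compared further on. The RefSeq promoter table (GRCm38.p6) holds windows for 9 of the 10 genes, 16 windows in all, and the 250 bases before the start were searched on both strands. ACGTG was present in 6 of these 16 windows, which belong to 5 of the 9 genes, against 16.6% of all 32851 windows and 18.5% of all 27025 genes. The E-box letters CACGTG, which contain ACGTG, were present in 1 of the 9 genes, against 6.86% of all genes. Each sequence is written 5′ to 3′ on the strand of its gene and ends at the base before the start, with capitals marking ACGTG or its reverse complement CACGT.

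Slc2a1, chr4:119108495-119108744, plus strand: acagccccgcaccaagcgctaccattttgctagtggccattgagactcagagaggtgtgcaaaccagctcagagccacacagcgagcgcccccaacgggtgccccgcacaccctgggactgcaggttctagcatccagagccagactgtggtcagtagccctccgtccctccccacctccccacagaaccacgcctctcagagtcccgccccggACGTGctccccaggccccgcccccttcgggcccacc
Hk2, chr6:82774455-82774704, minus strand: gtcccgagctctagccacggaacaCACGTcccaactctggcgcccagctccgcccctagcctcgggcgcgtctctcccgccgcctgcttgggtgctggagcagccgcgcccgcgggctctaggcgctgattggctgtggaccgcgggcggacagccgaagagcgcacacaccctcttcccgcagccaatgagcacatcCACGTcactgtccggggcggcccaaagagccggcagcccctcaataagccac
Pgk1, chrX:106186850-106187099, plus strand: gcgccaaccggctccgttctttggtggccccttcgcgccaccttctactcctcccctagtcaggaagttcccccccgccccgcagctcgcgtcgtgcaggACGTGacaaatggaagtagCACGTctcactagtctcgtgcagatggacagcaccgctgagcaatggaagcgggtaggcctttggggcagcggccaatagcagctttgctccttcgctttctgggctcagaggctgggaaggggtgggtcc
Ldha, chr7:46845554-46845803, plus strand: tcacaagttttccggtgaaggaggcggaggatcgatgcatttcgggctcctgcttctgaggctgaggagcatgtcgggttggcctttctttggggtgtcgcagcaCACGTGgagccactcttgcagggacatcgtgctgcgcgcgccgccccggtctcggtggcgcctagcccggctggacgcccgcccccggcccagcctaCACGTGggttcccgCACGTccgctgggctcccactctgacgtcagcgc
Aldoa, chr7:126799255-126799504, minus strand: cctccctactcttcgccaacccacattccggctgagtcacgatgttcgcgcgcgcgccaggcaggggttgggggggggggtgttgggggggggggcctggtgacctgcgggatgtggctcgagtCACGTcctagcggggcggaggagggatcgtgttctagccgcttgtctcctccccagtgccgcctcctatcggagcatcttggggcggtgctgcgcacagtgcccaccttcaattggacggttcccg

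In Ldha, CACGTG began 145 and 48 bases upstream of the start, and CACGT began 34 bases upstream. The match in Slc2a1 began 36 bases upstream. Hk2 held a match at 226 and another at 52 bases, and Pgk1 at 150 and 131 bases. In Aldoa, a match began 126 bases upstream in the window shown, and an overlapping window of another start held the same match at 202 bases. Windows of Hk1, Gpi1, Aldoc and Eno1 did not hold these letters, and neither did another window of Ldha and of Aldoa. Slc2a3 had no window and was not searched. A match in a window is a description of its letters and was not tested against the changes in signal.

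Slc2a1 encodes GLUT1, the transporter that supplies most cells with basal glucose and that carries glucose into milk-producing cells. Its log2 signal was 14.71, 14.40 and 14.50 in the fetal samples against 17.67, 17.97 and 18.03 in the adult basal samples. The gap between the populations was far wider than the spread of either, and the log2 fold change was -3.35 (SE 0.14, Holm-adjusted p = 8.4e-04, limma). Slc2a3 encodes GLUT3, a high-affinity transporter best known from neurons. It read 7.55, 7.12 and 7.56 in the fetal samples against 11.59, 12.39 and 12.32 in the adult basal samples. The log2 fold change was -4.69 (SE 0.24, Holm-adjusted p = 0.0033, limma), the largest of the 10 genes. Its call was lost without fetal replicate 1 (log2 fold change -4.76, Holm-adjusted p = 0.058, limma) and held in the other 5 fits that left out 1 array. Adult basal replicate 1 was the lowest of its group for both transporters.

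Hexokinase 1 is the housekeeping form of the enzyme and hexokinase 2 the inducible form of muscle, fat and tumors. Hk2 read 10.76, 10.58 and 10.42 in the fetal samples against 12.15, 12.91 and 12.37 in the adult basal samples. The groups were well apart, with a log2 fold change of -1.89 (SE 0.20), yet the difference did not pass the correction (Holm-adjusted p = 0.50, limma). Adult basal replicate 2 stood above the others of its group for Hk2. Hk1 read 13.84, 13.90 and 13.74 in the fetal samples against 14.36, 14.63 and 14.44 in the adult basal samples. Its log2 fold change was -0.65 (SE 0.11) on the main probe and -0.55 (SE 0.10) on the other probe, and neither was called.

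Gpi1 encodes the isomerase that converts glucose 6-phosphate to fructose 6-phosphate. Its main probe read 15.73, 15.80 and 15.76 in the fetal samples against 17.39, 17.55 and 17.47 in the adult basal samples. The replicates were close together (SD 0.03 in fetal and 0.08 in adult basal samples, n = 3), and the log2 fold change was -1.71 (SE 0.10, Holm-adjusted p = 0.0065, limma). A further probe gave -1.73 (SE 0.12, Holm-adjusted p = 0.022, limma) and was called too. The remaining probe gave -1.23 (SE 0.32) and was not called. On that probe, adult basal replicate 2 read 16.30 where replicates 1 and 3 read 17.46 and 17.57, and the fetal arrays read 15.95, 15.87 and 15.83. The call of Gpi1 was lost in 4 of the 6 fits that left out 1 array. The Holm-adjusted p was 0.14 without fetal replicate 1, 0.13 without fetal replicate 2, 0.12 without fetal replicate 3 and 0.074 without adult basal replicate 3, with log2 fold changes between -1.74 and -1.67 over all 6.

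Aldolase A is the form of muscle and most tissues, and aldolase C is the form best known from brain. Both split fructose 1,6-bisphosphate into triose phosphates. Aldoc read 16.41, 16.51 and 16.28 in the fetal samples against 14.02, 13.97 and 13.93 in the adult basal samples. It was the only one of the 10 genes that was brighter in fetal cells, with a log2 fold change of 2.43 (SE 0.10, Holm-adjusted p = 9.9e-04, limma). Aldoa read 16.80, 16.81 and 16.86 in the fetal samples against 18.05, 17.98 and 18.04 in the adult basal samples. Replicates of Aldoa were tight (SD 0.03 in fetal and 0.04 in adult basal samples, n = 3), and the log2 fold change of -1.20 (SE 0.09) narrowly missed the call (Holm-adjusted p = 0.052, limma).

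None of the genes of later steps was called. Pgk1 encodes the enzyme that makes the first ATP of glycolysis, and read 16.30, 16.30 and 16.60 in the fetal samples against 17.17, 17.01 and 17.15 in the adult basal samples (log2 fold change -0.71, SE 0.12). Eno1 encodes the widely expressed enolase, which makes phosphoenolpyruvate, and read 16.91, 16.70 and 16.81 against 17.37, 17.21 and 17.17 (log2 fold change -0.44, SE 0.11). The groups of both did not overlap. Ldha encodes the lactate dehydrogenase subunit that predominates in muscle. Its main probe read 17.40, 17.34 and 17.35 in the fetal samples against 17.72, 17.85 and 17.88 in the adult basal samples (log2 fold change -0.45, SE 0.10). Its other probes gave -0.84 (SE 0.12) and -1.01 (SE 0.14), and none of the 3 was called. The choice of probe moves the estimate for Ldha from a 1.37-fold to a 2.01-fold difference.

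Some of these genes have near-identical copies in the mouse genome, and since no probe sequences were used here, binding to a copy was not checked. The 2 probes of Eno1b, a close copy of Eno1, gave log2 fold changes of -0.47 (SE 0.10) and -0.60 (SE 0.11), neither of them called. Aldoart1, a retrogene of Aldoa, fell below the limit of the low-signal filter in both populations.

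Among the 10 genes, 3 pairs encode alternative forms of the same step. Differences between their log2 signals on the same array show whether the main probes of a pair moved equally. These differences do not compare amounts, because each probe has its own binding strength. Probes of the same gene can also differ in their change, as for Ldha (-0.45 and -1.01). A shift between probes need not be a shift between transcripts. Aldoc minus Aldoa was -0.39, -0.30 and -0.58 in the fetal samples against -4.03, -4.01 and -4.11 in the adult basal samples, a shift of 3.63 log2 units (SE 0.09), or 12.4-fold. Hk2 minus Hk1 was -3.08, -3.32 and -3.32 in the fetal samples against -2.22, -1.73 and -2.07 in the adult basal samples, a shift of -1.24 (SE 0.16). Slc2a1 minus Slc2a3 was 7.16, 7.28 and 6.94 in the fetal samples against 6.08, 5.59 and 5.71 in the adult basal samples, a shift of 1.33 (SE 0.18). In all 3 pairs the populations did not overlap. A 2-sided exact permutation test gave p = 0.1 for each pair (0.1 after Benjamini-Hochberg adjustment over the 3), which is the smallest p that 3 arrays against 3 allow.

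**Figure D2:**
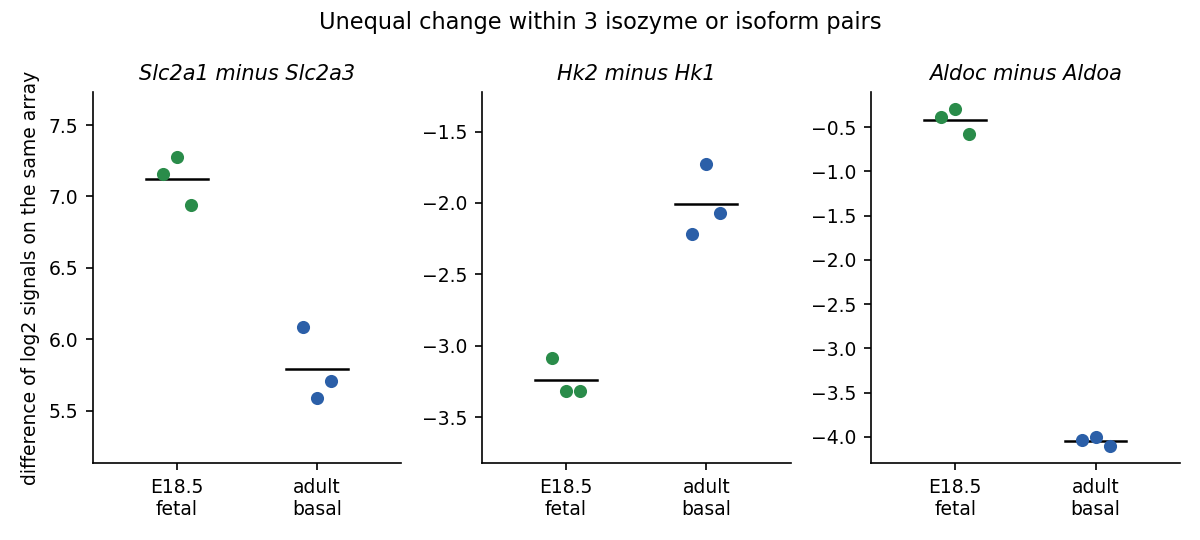
Difference between the log2 signals of the paired genes on the same array (y axis, log2 units, with its own range in each panel and the same direction as the panel title) for the fetal (green) and adult basal (blue) arrays, with a black line at each mean. The populations are apart in each panel, with the widest gap for Aldoc minus Aldoa (shift of 3.63).

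Arrays lay on 2 slides, with fetal replicate 1 and adult basal replicates 1 and 3 on slide 1 and the other arrays on slide 2. Within each slide all 10 genes kept the direction seen over all arrays. Slc2a1 gave a log2 fold change of -3.14 within slide 1 and -3.52 within slide 2, Slc2a3 -4.40 and -5.05, Gpi1 -1.70 and -1.77, and Aldoc 2.43 and 2.43. Hk2 differed most between the slides, with -1.50 and -2.41. With slide as a block, 4 of the 10 genes were called. Adult basal replicate 2, which stood apart on a Gpi1 probe and for Hk2, could be left out with 4 of the 10 genes called.

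**Figure D3:**
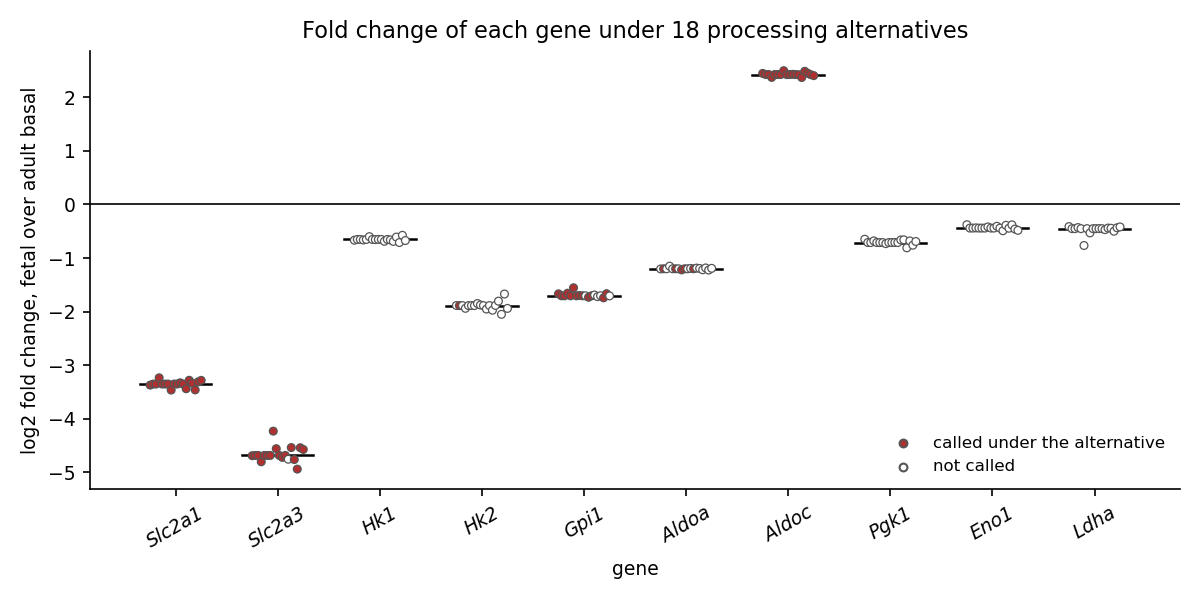
Log2 fold change, fetal over adult basal (y axis), of each of the 10 genes under 18 processing alternatives (points, filled red where the gene was called) beside the reported value (black line). Slc2a1 and Aldoc were called under all 18, Slc2a3 under 17, Gpi1 under 13, Aldoa under 5 and Hk2 under 1, and no gene changed direction.

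The other enzymes of the pathway were taken from a list of 22 genes, of which 19 were tested. One was called, lower in fetal cells, a share of 5.26% against 5.16% of all tested genes called lower. Of the 19, 13 had a lower fetal mean (68.4%), as did 52.5% of all tested genes. That gene was Pfkp, the platelet form of phosphofructokinase, the enzyme that commits sugar to glycolysis. Its main probe read 9.77, 9.53 and 9.68 in the fetal samples against 13.54, 13.88 and 13.98 in the adult basal samples, and the log2 fold change was -4.14 (SE 0.14, Holm-adjusted p = 2.2e-04, limma). A dimmer Pfkp probe gave -0.16 (SE 0.13) with overlapping groups, so the probes of Pfkp disagree. The liver form Pfkl gave -1.39 (SE 0.15) and the muscle form Pfkm 0.66 (SE 0.12), neither of them called. Fbp1, which encodes the bisphosphatase that runs the phosphofructokinase step backward, was called higher in fetal cells, with 13.86, 13.99 and 14.07 on the fetal arrays against 6.39, 6.19 and 6.22 (log2 fold change 7.71, SE 0.11).

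Past the aldolase step, no enzyme of the list was called. Tpi1, which interconverts the triose phosphates, gave -0.60 (SE 0.11) on its main probe. Gapdh, often used as a reference gene, gave -0.57 (SE 0.10) on its brightest probe and between -0.97 and -0.69 on its 6 other probes, with no overlap between the populations on any of the 7. Pgam1, the phosphoglycerate mutase of most tissues, gave -1.21 (SE 0.10, Holm-adjusted p = 0.090, limma). The neuronal enolase gene Eno2 gave -1.03 (SE 0.16), the pyruvate kinase gene Pkm -0.64 (SE 0.13), and Ldhb, the heart-type lactate dehydrogenase subunit, 0.21 (SE 0.14) with overlapping groups. Bpgm, named here after its values were seen, encodes the mutase that makes 2,3-bisphosphoglycerate and went the other way. It read 9.50, 9.65 and 9.94 in the fetal samples against 7.64, 6.89 and 7.29 in the adult basal samples, without overlap, and its log2 fold change of 2.42 (SE 0.21) did not pass the correction (Holm-adjusted p = 0.11, limma). The Benjamini-Hochberg adjustment, which is less strict, called 6 of the 19, 1 higher and 5 lower in fetal cells, and the higher one was Bpgm (adjusted p = 4.7e-05, limma). That adjustment called 29.7% of all tested genes, 15.8% higher and 13.9% lower.

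**Figure D4:**
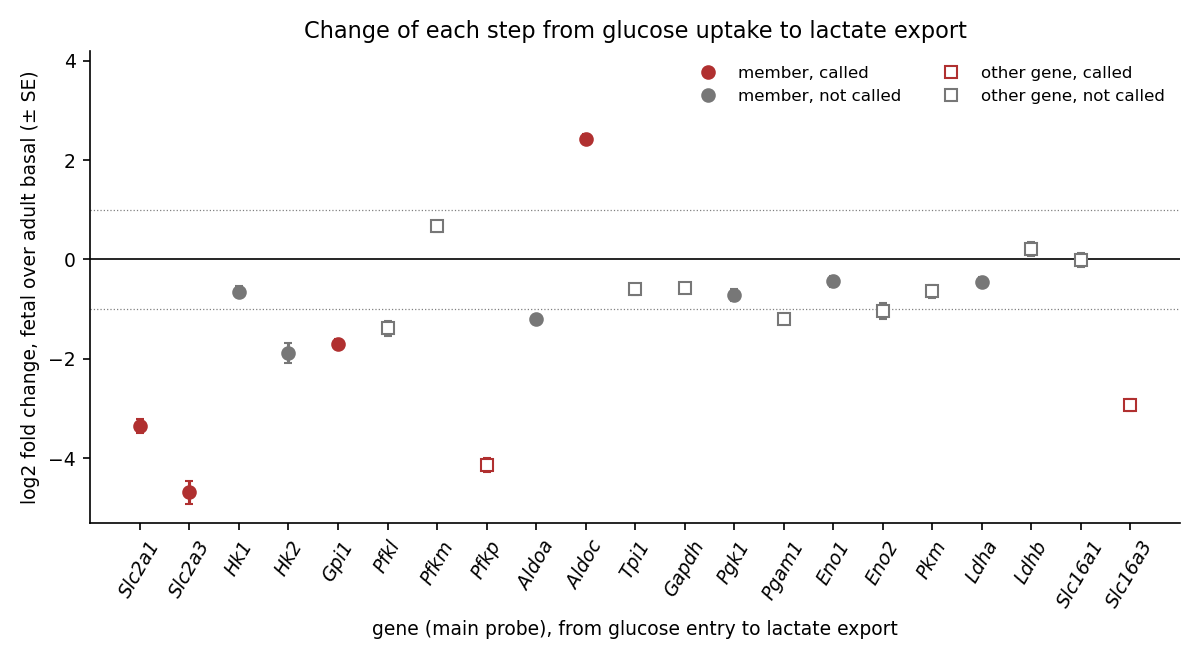
Log2 fold change, fetal over adult basal, with its SE (y axis) for the main probe of genes ordered from glucose entry to lactate export (x axis), with filled circles for the 10 genes, open squares for other genes, red for called and dotted lines at an absolute log2 fold change of 1. The largest negative values are at Slc2a3 (-4.69), Pfkp (-4.14), Slc2a1 (-3.35) and the lactate exporter Slc16a3 (-2.93). Aldoc is the only plotted gene above 1, and genes above 1 that are not plotted include Bpgm (2.42) and Fbp1 (7.71).

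Of 12 other glucose transporter genes, 8 were tested and 7 of these had a lower fetal mean (87.5%, against 52.5% of all tested genes). Only Slc2a9, which encodes a transporter known mainly for urate, was called, and it was higher in fetal cells, as were 5.97% of all tested genes. It read 9.02, 8.63 and 8.86 on the fetal arrays and did not rise well above background in any adult basal sample (0 of 3), so it was at least 29.3-fold higher in fetal cells (Holm-adjusted p = 0.046, limma). This bound sets the fetal mean against the lowest signal of probes well above background on each adult array. The call was lost in 5 of the 6 fits that left out 1 array, with Holm-adjusted p between 0.13 and 0.65 (limma), and held without adult basal replicate 1. None of the 8 was called higher with slide as a block, with all probes, without the low-signal filter, with the filter on probes well above background or with a trended robust variance, and the last called 1 lower. Benjamini-Hochberg adjustment called 1 of the 8 higher and 3 lower, against 15.8% and 13.9% of all tested genes.

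Of 20 genes of lactate and pyruvate fate, 4 were called, 1 higher and 3 lower in fetal cells (all tested genes, 5.97% higher and 5.16% lower), and the median log2 fold change was 0.13. Slc16a3 encodes the lactate exporter MCT4 of glycolytic cells, and read 12.06, 11.85 and 12.08 in the fetal samples against 14.97, 15.02 and 14.77 in the adult basal samples. Its probes gave -2.93 (SE 0.12, Holm-adjusted p = 7.3e-04, limma) and -3.01, both called. Slc16a1 encodes MCT1, a carrier found in most cells, and gave -0.01 (SE 0.14) with overlapping groups. Of the partner proteins of these carriers, Emb was called at -2.27 (SE 0.14), while Bsg gave -1.62 (SE 0.13, Holm-adjusted p = 0.071, limma). Pdk4, a kinase that shuts off pyruvate dehydrogenase, was called at -6.33 (SE 0.33) and read 7.65, 7.86 and 7.74 in the fetal samples against 13.25, 14.54 and 14.46 in the adult basal samples. Pcx, the pyruvate carboxylase gene, was called higher in fetal cells, with a log2 fold change of 3.22 (SE 0.12). With 1 array left out, Slc16a3 and Pcx stayed called in all 6 fits. Pdk4 lost its call without any 1 of the 3 fetal replicates (Holm-adjusted p = 0.081, 0.059 and 0.059, limma). Emb lost it in every fit but the fit without fetal replicate 3 (Holm-adjusted p between 0.064 and 0.20, limma).

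Of 13 tested regulators of glycolysis, 2 were called (15.4%, against 11.1% of all tested genes). One was Fbp1, given above, and the other was Pfkfb3, which makes the phosphofructokinase activator fructose 2,6-bisphosphate. Pfkfb3 read 10.99, 10.54 and 10.75 in the fetal samples against 14.31, 14.83 and 14.64 in the adult basal samples, with a log2 fold change of -3.83 (SE 0.17). A dimmer probe gave -3.63 (SE 0.42, Holm-adjusted p = 0.75, limma) and was not called.

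HIF target genes other than the 10 genes showed the most calls of the related lists. Of 20 tested, 14 were called, all lower in fetal cells, against 5.16% of all tested genes, and the median log2 fold change was -2.61, against -0.04 over all tested genes. Of the 14, 4 (Slc16a3, Pfkfb3, Egln1 and Egln3) also stand in another list described here. The largest were P4ha2, a collagen prolyl hydroxylase subunit, at -5.53 (SE 0.12), the vasodilator peptide gene Adm at -5.34 (SE 0.16), the carbonic anhydrase gene Car9 at -5.23 (SE 0.12) and the oxidase gene Ero1a at -4.91 (SE 0.18). Adm read 10.18, 9.88 and 10.05 in the fetal samples against 15.08, 15.58 and 15.47 in the adult basal samples. The fetal mean was lower for 17 of the 20, against 52.5% of all tested genes. The populations did not overlap for any of the 20, as for 68.4% of all tested genes. Among the 3 with a higher fetal mean were the carbonic anhydrase gene Car12 (log2 fold change 1.65, SE 0.16) and Pdk1 (1.01, SE 0.10), a kinase that inhibits pyruvate dehydrogenase, neither of them called. With Benjamini-Hochberg adjustment 16 were called lower and 2 higher, against 13.9% and 15.8% of all tested genes. Leaving out 1 array left between 10 and 12 of the 20 called lower, and 1 was called higher without adult basal replicate 1.

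Of 10 genes of the HIF pathway itself, 3 were called, all lower in fetal cells, against 5.16% of all tested genes. They were Egln1 (log2 fold change -2.67, SE 0.14) and Egln3 (log2 fold change -2.50, SE 0.10), which encode prolyl hydroxylases that mark HIF proteins for decay, and Epas1 (log2 fold change -2.81, SE 0.16), which encodes HIF-2α. A further Epas1 probe gave -2.40 and was called, and the remaining one gave -0.04 with overlapping groups. Hif1a, the gene of HIF-1α, read 11.57, 11.47 and 11.53 in the fetal samples against 10.86, 11.27 and 11.05 in the adult basal samples, a log2 fold change of 0.46 (SE 0.13) that was not called. Arnt2, named here after its values were seen and encoding a partner of HIF proteins, had a higher fetal signal without overlap and was not called (Holm-adjusted p = 1, limma). It read 8.34, 8.01 and 8.42 in the fetal samples against 4.25, 2.04 and 5.0 in the adult basal samples, where it rose well above background in 2 of 3. Benjamini-Hochberg adjustment called 2 of the 10 higher and 4 lower, against 15.8% and 13.9% of all tested genes. With replicate number as a block 1 of the 10 was called lower, and with slide as a block 2 were. With 1 array left out, Egln3 stayed called in all 6 fits, whereas Egln1 lost its call in 3 (Holm-adjusted p = 0.082 without fetal replicate 1, 0.0504 without fetal replicate 2 and 0.066 without adult basal replicate 1, limma). Epas1 lost it in 4, without each fetal replicate (Holm-adjusted p = 0.15, 0.11 and 0.096, limma) and without adult basal replicate 3 (0.063). Over the 9 lists together 24 of 117 tested genes were called (20.5%, against 11.1% of all tested genes), 3 higher and 21 lower in fetal cells, where the shares over all tested genes were 5.97% and 5.16%.

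**Figure D5:**
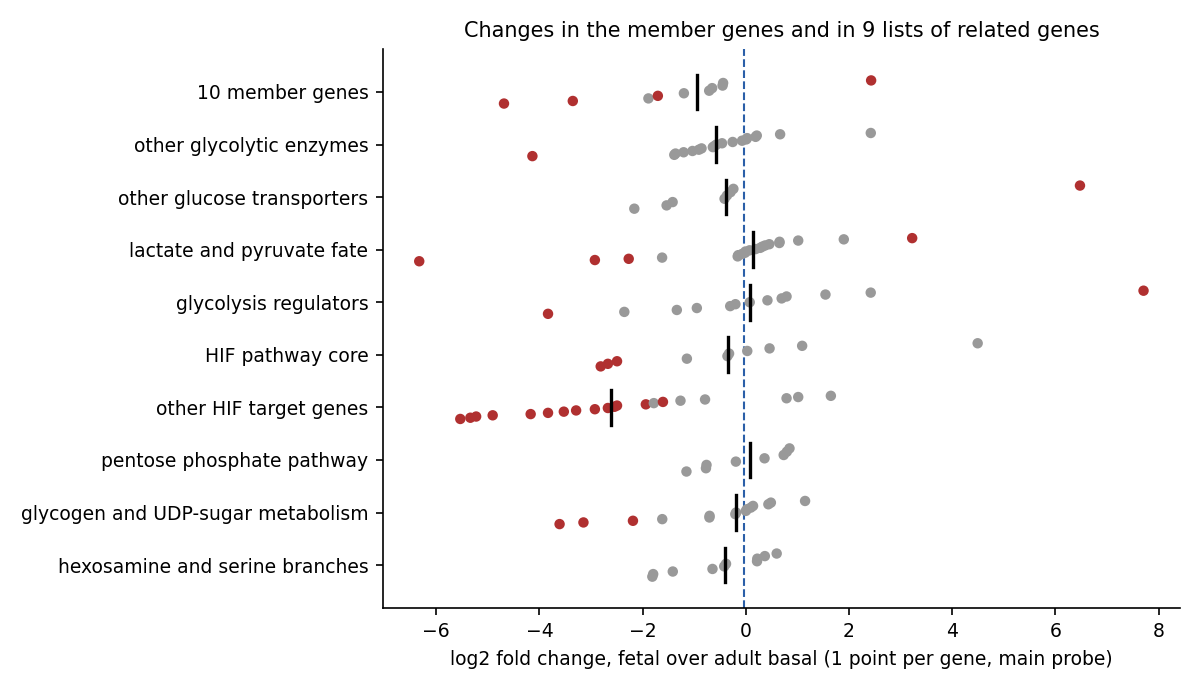
Log2 fold change, fetal over adult basal (x axis), of each tested gene (points, red where called) in the 10 genes and in 9 lists of related genes (rows), with a black bar at the median of each row and a dashed line at the median of all tested genes (-0.04). The HIF target row, with a median of -2.61, lies furthest to the left, and Slc2a9 (fitted value 6.48, with the adult signal at background) and Fbp1 (7.71) stand alone on the right.

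Cell type markers differed between the populations as well, and their part in the results above was not tested. All 9 basal markers exceeded background well in the 3 adult basal samples. Of the 9, 7 were called (11.1% of all tested genes were), all lower in fetal cells: the keratins Krt5 (log2 fold change -3.90) and Krt17 (-3.08), the contractile genes Acta2 (-4.07), Myh11 (-8.63), Cnn1 (-6.00) and Mylk (-4.50), and the oxytocin receptor gene Oxtr (-3.96). The log2 of their summed signal was 16.35, 16.21 and 16.09 in the fetal samples against 19.88, 19.80 and 19.79 in the adult basal samples, with Acta2 the brightest. The probes of Trp63 disagreed, with -0.08 on the main probe and -3.06, called, on the other. For Krt14, adult basal replicate 2 read 13.39, within the fetal range of 13.36 to 13.78, and replicates 1 and 3 read 15.25 and 15.46.

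Of 10 luminal markers, 4 were called, all higher in fetal cells (5.97% of all tested genes were), namely Elf5 (log2 fold change 7.55), Kit (16.04-fold), Pgr (log2 fold change 2.13) and Csn2 (at least 12.2-fold). The log2 of their sum was 17.51, 17.55 and 17.20 in the fetal samples against 16.96, 16.89 and 16.89 in the adult basal samples, with Krt18 the brightest. The fetal mean was lower for 3 of the 10, none of them called on its main probe, and the populations did not overlap for any of these 3, as for 68.4% of all tested genes. They were Esr1, the gene of estrogen receptor α, the keratin gene Krt19 (log2 fold change -1.22, SE 0.16) and Prlr. Esr1 read 3.80, 3.57 and 2.67 in the fetal samples, well above background in 1 of 3, against 7.07, 6.38 and 7.35 in the adult basal samples, so no fold is given. The main probe of Prlr gave -0.35 and a dimmer one gave 1.85 and was called.

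All 7 proliferation markers were called higher in fetal cells, against 5.97% of all tested genes, with a log2 sum of 16.79, 16.89 and 16.84 against 13.63, 13.56 and 13.63, and Pcna was the brightest (log2 fold change 1.92). The others were Mki67 (5.98), Top2a (5.64), Ccnb1 (5.82), Cdk1 (6.77), Mcm2 (2.75) and Birc5 (6.20). Of the other probes of Cdk1, one gave 6.17 and was called, and the remaining one gave 0.96 and was not. All 7 immediate early genes had a higher fetal mean, without overlap between the populations, as for 68.4% of all tested genes. Of these 7, Fosb (log2 fold change 2.36) was called higher, as were 5.97% of all tested genes. With Benjamini-Hochberg adjustment 6 of the 7 were called, against 15.8% of all tested genes called higher. Their log2 sum was 17.54, 17.80 and 17.65 in the fetal samples against 16.01, 15.82 and 16.17 in the adult basal samples, with Jun the brightest.

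Of 7 fibroblast markers, Dcn was called lower in fetal cells (log2 fold change -3.78), as were 5.16% of all tested genes. All 7 had a lower fetal mean, against 52.5% of all tested genes, and the median log2 fold change was -0.90. The populations did not overlap for 6, as for 68.4% of all tested genes. With Benjamini-Hochberg adjustment 2 were called, against 29.7% of all tested genes. The log2 sum of the list was 12.42, 12.49 and 12.79 against 13.93, 14.13 and 14.67, with Col1a2 the brightest over all 6 arrays and in the fetal samples and Dcn the brightest in the adult basal samples. Of 3 tested skeletal muscle markers, Acta1 was called lower (log2 fold change -4.68), against 5.16% of all tested genes called lower. Mb gave -1.26 (SE 0.27) and was not called, and Tnnt3 gave 0.03 (SE 0.11) with overlapping groups. The log2 sums were 9.99, 10.12 and 9.86 against 14.36, 14.50 and 14.36. They were mostly those of Acta1, which read 9.74, 9.87 and 9.51 against 14.33, 14.49 and 14.33. Myh4 did not exceed background clearly in any sample. No marker of leukocytes (6 tested), endothelium (4), erythroid cells (2) or adipocytes (5) was called with limma's Holm-adjusted test. The log2 sum of leukocyte markers was 14.86 ± 0.20 (SD, n = 3) for the fetal samples against 14.78 ± 0.24 (SD, n = 3) for the adult basal ones, with Itgam the brightest. The main probe of Itgam read 13.92 ± 0.31 against 13.68 ± 0.43. Of the 6 leukocyte markers, 5 had a lower fetal mean, against 52.5% of all tested genes. With Benjamini-Hochberg adjustment 1 was called lower, against 13.9% of all tested genes. It was Lyz2 (4.85 ± 0.30 against 6.61 ± 1.21, log2 fold change -1.76). Populations did not overlap for 1 of the 6, Lyz2, against 68.4% of all tested genes. The log2 sum of endothelial markers was 13.53 ± 0.12 against 13.60 ± 0.16, with Kdr the brightest. The endothelial sum was mostly that of the main Kdr probe, which read 13.45 ± 0.12 against 13.49 ± 0.17. All 4 endothelial markers had a lower fetal mean, against 52.5% of all tested genes, and the median log2 fold change was -0.97. With Benjamini-Hochberg adjustment 2 were called lower, against 13.9% of all tested genes. They were Cdh5 (4.83 ± 1.40 against 7.52 ± 0.27, log2 fold change -2.70) and Emcn (4.19 ± 0.52 against 5.98 ± 0.37, log2 fold change -1.79). For both the populations did not overlap, as for 68.4% of all tested genes. Erythroid sums were 10.18 ± 0.33 against 9.85 ± 0.52, with Hba-a1 the brightest and Epb42 not clearly above background anywhere. Adipocyte sums were 10.48 ± 0.69 against 11.05 ± 0.13, with Fabp4 the brightest. Fetal replicate 3 stood apart, with a sum of 11.28 where fetal replicates 1 and 2 gave 10.18 and 9.99.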

How the data were processed

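Each of 3 E18.5 fetal and 3 adult basal RNA samples was hybridized to an Agilent one-color array. The sources differ on the labelling kit: the labels name a low-input kit primed from T7 and the methods a whole-transcript version of it. Feature Extraction 11.0.1.1 gave the deposited spot intensity, a linear value that the authors' scanner software corrected for background within each array, without scaling arrays to each other. The authors also deposited a table of log2 values, quantile normalized, which was used as an alternative only.

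From the intensity, control spots and outlier spots (104 to 326 an array) were left out, spots of a probe were averaged on the log2 scale, and the 6 arrays were quantile normalized. Where every spot of a probe was an outlier on an array (37 probes), its spots were kept there. Of 55681 probes, 27235 (48.9%) matched a gene by accession in a RefSeq table of GRCm38.p6, which differs from the build of the array design, so promoter coordinates are those of RefSeq. Probes in the lowest of 3 k-means clusters in both populations (below 5.95) were removed. The remaining 20451 were fitted with limma 3.58.1 in R 4.3.3, with Holm adjustment over all of them. The fit was tested on simulated data. Sums of marker signals are sums of linear intensities of main probes, given as log2.

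Between 76.4% and 83.3% of probes of an array exceeded background well, and no spot was saturated. Precision is limited by having 3 arrays of each population. The limma p-values weigh each difference between populations against the spread between these samples, moderated over the tested probes. A called difference from a population well above background on none of its arrays is given as a bound.

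The genes and lists were chosen with earlier results of these data known. Named were the 10 genes, 13 further genes of the pathway, up to 4 called genes in each direction with the largest change in each list, and, of each marker list, the brightest and every called gene. Where probes of the 10 genes disagreed in sign or call, each probe was given. For other genes only some such probes were. As alternatives, arrays were scaled to their 75th percentile or the deposited log2 values were used. Others were normexp (offset 50, on median signals because no mean signal was used), no filter on low signal, probes kept if well above background, probes with or without a gene, Benjamini-Hochberg adjustment, a trended robust variance, an offset of 16, each array left out, replicate number or slide as a block, values within slides, and averages over the probes of a gene. Tables were made in Python 3.11.15 with pandas 2.3.3, numpy 2.4.6 and scipy 1.17.1, and plots with matplotlib 3.10.9.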

Additional observations from a re-analysis of the deposited data

How the results depend on the processing

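Over all 20451 tested probes 2248 were called. That count was 6129 with Benjamini-Hochberg adjustment, 1177 with no filter on low signal (27235 probes tested) and between 943 and 1942 when 1 array was left out. Of the 10 genes, 4 were called, and between 2 and 4 when 1 array was left out, with 2 without fetal replicate 1, where Slc2a3 (Holm-adjusted p = 0.058, limma) and Gpi1 were lost. Under normexp, an offset of 16, a trended robust variance and averages over the probes of a gene, 5 were called, since each added Aldoa, and 6 with Benjamini-Hochberg adjustment, which added Hk2 as well. Of the 117 other pathway genes, 24 were called, 51 with Benjamini-Hochberg adjustment (29.7% of all tested genes were), and between 16 and 24 when 1 array was left out. No alternative reversed the direction of any of the 10 genes. The replicate number names no stated pairing, and deviations of same-numbered fetal and adult arrays correlated at -0.03, 0.09 and 0.05. With replicate number as a block, 1267 probes, 3 of the 10 genes (Gpi1 was lost, Holm-adjusted p = 0.14, limma) and 18 pathway genes were called. With slide as a block, 1515 probes, 4 of the 10 genes and 19 pathway genes were called. That block left 12 of the HIF target genes and 2 genes of lactate and pyruvate fate called lower. Beyond the stricter or looser adjustment and the number of probes or arrays, the cause of these moves was not tested. Probes near the scanner background limit what can be said of Slc2a9 and Csn2 to a bound.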

Other observations

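Of 15 tested genes of glycogen and UDP-sugar metabolism, 3 were called, all lower in fetal cells, against 5.16% of all tested genes. Gbe1, which adds branches to glycogen, read 10.21, 10.30 and 10.39 in the fetal samples against 13.66, 14.28 and 13.79 in the adult basal samples (log2 fold change -3.61, SE 0.17). Gys1, the glycogen synthase of tissues other than liver, gave -3.15 (SE 0.12) on its main probe and -3.11 on the other, both called. Pgm1, which links glucose 6-phosphate and glucose 1-phosphate, gave -2.19 (SE 0.10). The genes that break glycogen down were not called, and the median over the list was -0.19.

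None of 8 tested genes of the pentose phosphate pathway was called with limma's Holm-adjusted test, and 1 was with Benjamini-Hochberg adjustment, which called 29.7% of all tested genes. The median log2 fold change was 0.08, and 4 of the 8 had a lower fetal mean. None of the 10 genes of the hexosamine and serine branches was called on its main probe. With Benjamini-Hochberg adjustment 3 were called, against 29.7% of all tested genes. Gfpt1, which draws fructose 6-phosphate into amino sugar synthesis, gave -1.80 (SE 0.14, Holm-adjusted p = 0.055, limma) on its main probe and -2.01 (SE 0.13, Holm-adjusted p = 0.014, limma) on a dimmer one.

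The brightest probe gave the smallest change for Ldha and Gapdh, a pattern noticed in these data and then counted over a wider set of genes. Hk1 and Gpi1 did not show it. The brightest probe of Hk1 gave -0.65 and the other -0.55, and that of Gpi1 gave -1.71 and the others -1.73 and -1.23. The pattern was counted among genes with several probes that exceeded background well throughout, where the value of the brightest probe and the mean of its other probes averaged 0.5 log2 units or more in size. The brightest probe changed less than the mean of the others in 34 of 46 genes whose brightest probe had a mean log2 signal of 16 or more. Ldha and Gapdh, where the pattern was noticed, were among the 34. The count was 232 of 452 where the brightest probe lay between 12 and 14. Genes are not replicates, so no p is given.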
